A study of Mus musculus with 14 samples.

Results

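The miRNAs described here are 9 of the 1695 names in a mouse miRNA count table. They are the family names mmu-miR-3473a, mmu-miR-3473b, mmu-miR-3473c, mmu-miR-3473d, mmu-miR-3473e and mmu-miR-3473f, both arms of one hairpin, mmu-miR-7667-5p and mmu-miR-7667-3p, and mmu-miR-5128, written below without the species prefix where possible. They were taken by name, and all 9 were present. miR-3473b, miR-3473e, miR-7667-5p and miR-5128 were chosen by their rises with treatment, which were among the strongest in the table, and the other 5 are their sister names or the other arm of the same hairpin. The rises that chose them are therefore given below as a description, with no test.

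The RNA came from small extracellular vesicles, membrane particles that cells shed, which had been collected from mouse neutrophils. The cells were Ly6G-positive bone marrow cells of wild-type female BALB/c mice, kept for 48 h either with 10 µM 27-hydroxycholesterol (27HC), a cholesterol metabolite, or with the solvent DMSO alone. Each treatment had 7 libraries, numbered 1 to 7. Each library label also carries a pair of consecutive numbers, the same pairs in both treatments, and what these mark (pooled sources, for example) is not stated. The labels do not say whether the libraries came from separate mice or cultures, so the p-values below measure the spread between these libraries, which may be partly technical. Whether vesicles were pooled across animals is not given in the sources used here.

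A microRNA is a short RNA cut from the stem of a hairpin, and it recognises messenger RNAs mainly through its seed, bases 2 to 8 from its 5′ end. The names described here belong to rodents and not to the deeply conserved miRNA families. Rodent genomes also hold very many copies of short interspersed elements (SINEs), repeats of which some are derived from transfer RNA and made by RNA polymerase III, and several hairpins annotated as mouse miRNAs lie in such copies. A short read that matches a repeat can have many places of origin.

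The mature sequences are printed first because the counts cannot be read without them. All 9 were found in the RefSeq table (GRCm38.p6). They are written 5′ to 3′ with the seed in capitals.
miR-3473b: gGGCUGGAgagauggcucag
miR-3473e: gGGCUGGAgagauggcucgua
miR-3473a: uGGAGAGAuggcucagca
miR-3473f: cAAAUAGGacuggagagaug
miR-3473c: uCUCUCCAgcccccauaauaag
miR-3473d: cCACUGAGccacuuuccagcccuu
miR-5128: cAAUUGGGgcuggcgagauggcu
miR-7667-5p: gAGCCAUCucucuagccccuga
miR-7667-3p: aGGGACUGcagagauggcacug

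miR-3473b and miR-3473e shared the seed GGCUGGA, and no other name with a sequence in the table carried it. The other 7 members each had a seed of their own, so a family name did not mean a shared seed here. miR-3473c shared its seed with miR-7649-3p, and miR-3473d shared its seed with miR-674-5p and miR-1947-3p, which are not family names.

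The sequences of the 4 rising names were close relatives of one another. miR-3473b and miR-3473e were identical over their first 18 bases, GGGCUGGAGAGAUGGCUC, and differed at the 3′ end by A19G and G20U, with miR-3473b as the reference and positions counted from 1 at its 5′ end. miR-5128 matched miR-3473b at 16 of 17 aligned bases, with A8C as the difference. miR-7667-5p matched in the opposite direction: its reverse complement matched 17 of 18 aligned bases of miR-3473b, with G6A as the difference. The scarce names were related too. miR-3473a matched at 16 of 16 aligned bases, miR-3473f at 13 of 14 with G3A as the difference, and miR-7667-3p at 16 of 20, with G3A, G7C, U17A and A19U. miR-3473c matched as a reverse complement over 12 of 12 bases. miR-3473d, also as a reverse complement, matched at 12 of 20 aligned bases, since the alignment allowed no gaps. The first 8 and the last 8 bases of miR-3473b both occur in that reverse complement, closer together than in miR-3473b. The lines below show each name read in the direction of miR-3473b, with the 9 bases common to the 4 rising names and miR-3473a in capitals.
miR-3473b: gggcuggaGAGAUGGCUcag
miR-3473e: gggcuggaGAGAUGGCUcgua
miR-5128: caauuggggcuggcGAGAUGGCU
miR-7667-5p, reverse complement: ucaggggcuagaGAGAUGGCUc
miR-3473a: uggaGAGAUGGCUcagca

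Among the 1431 names of the table with a sequence, 5 held GAGAUGGCU or its reverse complement AGCCAUCUC, or 0.349%, and all 5 were members. They were the 4 rising names and miR-3473a. These 9 bases were read off the rising names themselves, so that their presence there follows from the search and is no separate finding. As background, the 18 bases resemble the head of rodent B2 and B3 SINEs. No repeat annotation was used here.

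The run was common in annotated transcripts. Of 53248 genes other than miRNA genes in GENCODE M21 (GRCm38), 402 held the 18 bases of miR-3473b and miR-3473e in a transcript on the same strand, or 0.755%, and 438 held them on the other strand, or 0.823%. Counting any 18-base stretch of a mature sequence on either strand, mmu-miR-3473b was found in 1031 genes, mmu-miR-3473e in 831, mmu-miR-3473a in 281, mmu-miR-7667-5p in 92 and mmu-miR-5128 in 33. mmu-miR-3473c was found in 2 genes and mmu-miR-7667-3p in 1, while mmu-miR-3473d and mmu-miR-3473f were found in 0. The median over all 201 tested names with a sequence was 0 genes.

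The hairpins of the most abundant names show where these bases sit. The mature arms are in capitals.
Mir3473b: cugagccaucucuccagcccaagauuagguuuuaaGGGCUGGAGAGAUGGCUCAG
Mir7667: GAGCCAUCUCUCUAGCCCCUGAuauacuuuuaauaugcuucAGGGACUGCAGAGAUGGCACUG
Mir5128: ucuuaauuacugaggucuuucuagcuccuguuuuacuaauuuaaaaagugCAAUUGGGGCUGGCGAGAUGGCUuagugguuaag

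The Mir3473b hairpin is an inverted repeat: its 5′ arm holds a run of 20 bases that is the exact reverse complement of miR-3473b. That arm also holds 12 bases of miR-7667-5p in a row. It lies at chr10:41670739-41670793 on the plus strand, in an intron of Ccdc162, which is on the other strand. Mir7667 lies at chr17:29595538-29595600 on the plus strand, in an intron of Tbc1d22b. Mir5128 lies at chr2:37688201-37688284 on the minus strand, in an intron of Strbp. Mir3473e is at chr5:31667231-31667340 on the minus strand, in an intron of Rbks, with the same strand as its host, as for Mir7667 and Mir5128.

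The sisters sit elsewhere. Mir3473a is at chrX:162874918-162874995 in an intron of Syap1, Mir3473d at chr8:111016450-111016530 in an intron of Ddx19b, and Mir3473f at chr1:106546496-106546631 in an intron of Bcl2. Mir3473c, at chr1:191998554-191998634, overlaps an exon of Traf5. All 4 are on the minus strand, as are these host genes. The coordinates are those of GRCm38, and the submitters' notes name GRCm39, so they place the hairpins and not the reads.

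Library totals ran from 112914 to 871189 counts. A count of 0 allows up to 3 counts, which is 3.44 CPM (counts scaled to a common library size) in the deepest library and 26.6 CPM in the shallowest, for counting error only. These 2 limits use the raw library totals, without TMM scaling. CPM below are scaled by TMM library sizes. The labelled source was checked with miRNAs known from blood cells, from stromal and endothelial cells and from liver. The 4 neutrophil and myeloid names summed to 83291 to 216664 CPM in DMSO and to 113054 to 149157 CPM in 27HC libraries, with 2 of the 4 called lower by edgeR. The 4 erythroid names summed to 505 to 1062 and 730 to 1126 CPM, the 3 lymphoid names, 2 of them called lower, to 1331 to 1800 and 999 to 1568 CPM, the 4 stromal and endothelial names to 763 to 1708 and 705 to 1748 CPM, and the liver miRNA miR-122-5p to 2476 to 4587 and 1895 to 3672 CPM. None of these names was at 0 in every library, and their part in the results was not tested. Replicates 1 to 4 are also set against replicates 5 to 7, a split taken from an earlier look at these data and not from the labels.

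miR-3473b was the most abundant member. In DMSO libraries it had a lowest level of 2622, a median of 5223 and a highest level of 8927 CPM, from 466 to 4290 counts. In 27HC libraries the lowest, median and highest levels were 16860, 29437 and 36535 CPM, from 2056 to 9468 counts. The lowest 27HC library, replicate 7, was above the highest DMSO library, replicate 2. The mean rose from 5075 ± 2137 to 26872 ± 7030 CPM (SD, n = 7), and miR-3473b moved from rank 25 to rank 6 among the 239 tested names. A share of all counts in vesicle RNA cannot tell more of a molecule per vesicle from less of the others, or from another mix of vesicles.

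miR-3473e repeated these values almost count for count. Its lowest, median and highest levels were 2592, 5212 and 8907 CPM in DMSO and 16852, 29349 and 36515 CPM in 27HC libraries. In a library, miR-3473b exceeded it by 1 to 25 counts, so that miR-3473e came to between 96.8% and 99.8% of miR-3473b in DMSO and to at least 99.6% in 27HC libraries. The excess had a median of 12 counts in DMSO and of 4 counts in 27HC libraries, where the pair was higher. With 18 identical bases, reads that end before base 19 belong equally to both names, and the rule by which such reads were counted is not given in the sources used here. The pair is treated below as 1 measurement.

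miR-7667-5p was the next in abundance. Its lowest, median and highest levels were 503, 609 and 921 CPM in DMSO libraries, from 72 to 439 counts. They were 1632, 2573 and 3191 CPM in 27HC libraries, from 199 to 1076 counts. The groups did not overlap, with replicate 2 the highest in both treatments and replicate 7 the lowest in both. Its mean was 662 ± 137 CPM (SD, n = 7) without and 2576 ± 547 CPM (SD, n = 7) with 27HC.

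miR-5128 was close to miR-7667-5p. Its lowest, median and highest levels were 361, 512 and 684 CPM in DMSO libraries, from 80 to 265 counts, and 1000, 1445 and 1997 CPM in 27HC libraries, from 122 to 844 counts. The groups did not overlap, but here replicate 7 was the highest DMSO library and the lowest 27HC library. Its mean was 518 ± 116 CPM (SD, n = 7) without and 1565 ± 352 CPM (SD, n = 7) with 27HC.

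The order of levels was thus miR-3473b with miR-3473e, then miR-7667-5p, then miR-5128, in the means of both treatments. The first step exceeded the spread, since no library had more than 19.2 counts of miR-7667-5p for 100 counts of miR-3473b. The second did not in DMSO, where miR-5128 ran from 48.2 to 136 counts for 100 of miR-7667-5p, and it was larger than miR-7667-5p in replicates 5 and 7. In 27HC libraries it was between 53.1 and 78.4, under miR-7667-5p in all 7. These orders are of counts and not of molecules.

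**Figure D1:**
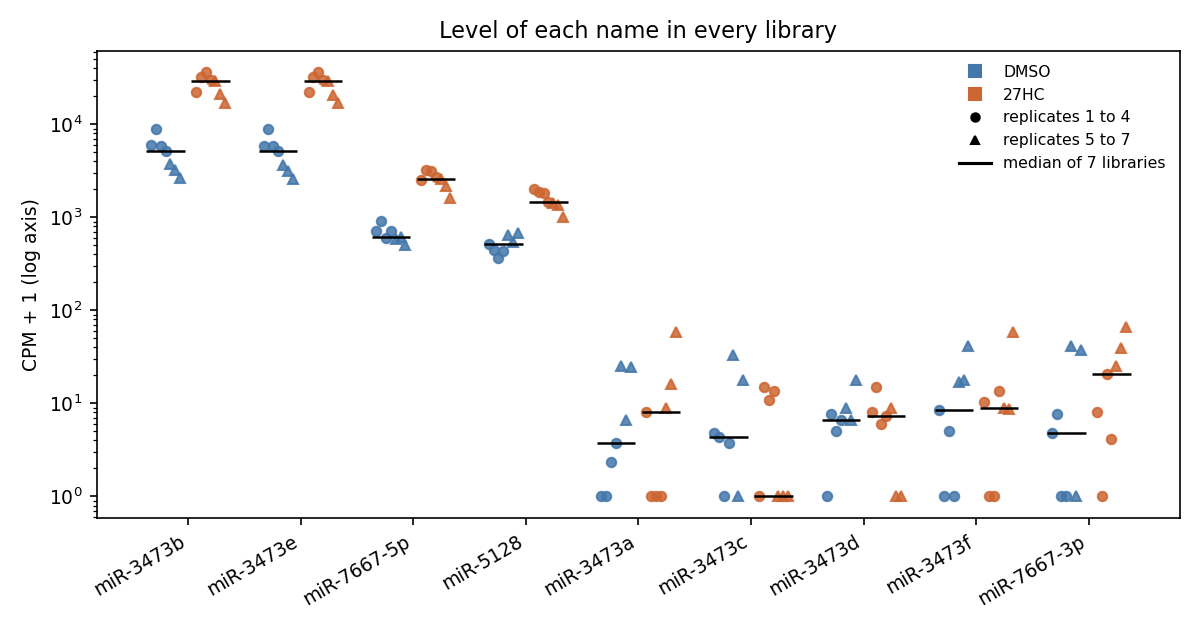
Level of each of the 9 names in every library, as CPM plus 1 on a log axis, with DMSO and 27HC libraries side by side, circles for replicates 1 to 4, triangles for replicates 5 to 7 and a line at the median of 7. The 4 names at the left do not overlap between treatments, and the 5 at the right stay at or under 65.6 CPM in every library.

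The remaining 5 members, miR-3473a, miR-3473c, miR-3473d, miR-3473f and miR-7667-3p, were near the limit of detection. Together they had 153 counts in the 14 libraries, against 53756 for miR-3473b, and 22 of the 70 single values were 0. The highest single value was 12 counts, for miR-3473f in DMSO replicate 7. None of the 5 passed the filter on low counts.

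The counts of these 5 names overlapped between treatments. miR-3473a, which carries 16 bases of miR-3473b in a row, had a lowest, median and highest value of 0, 1 and 7 counts in both DMSO and 27HC libraries, with 13 counts in all in each treatment. miR-7667-3p, the other arm of the Mir7667 hairpin, had 0, 1 and 11 counts in DMSO and 0, 3 and 8 counts in 27HC libraries, 19 and 24 in all. miR-3473f had 22 and 17 counts in all, miR-3473d 14 and 10, and miR-3473c 12 and 9.

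Set against all counts of a treatment, 2373021 in DMSO and 1552769 in 27HC libraries, with no TMM scaling, the 5 names came to 33.7 and 47.0 CPM. A fit with no filter gave log2 fold changes of 0.57 (SE 0.88) for miR-3473a, 0.87 (SE 0.72) for miR-7667-3p, 0.14 (SE 0.78) for miR-3473f, −0.094 (SE 0.95) for miR-3473d and −0.21 (SE 0.99) for miR-3473c. These errors are wide, and the sign differed between the sets of replicates for miR-3473f, miR-3473d and miR-3473c. At this depth changes as large as those of the abundant names could not be told from none for miR-3473a and miR-7667-3p. For miR-3473f, miR-3473d and miR-3473c the same held for a rise as large as that of miR-5128, at 1.61 (SE 0.17). 2 further family names outside the list, named after their values were seen, were as scarce: miR-3473g had 7 counts in all libraries, 6 of them in DMSO, and miR-3473h-5p had 28, 15 of them in DMSO.

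Arm use at the Mir7667 hairpin was one-sided. miR-7667-5p held 93.2% to 100% of the counts of both arms, with a median of 99.5% in DMSO and 99.4% in 27HC libraries. The lowest shares were those of DMSO replicates 7 and 5, at 93.2% and 93.5%.

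The sum of the 5 scarce names differed between the sets of replicates. As a share of the raw library totals, without TMM scaling, they came to 106 CPM in replicates 5 to 7, from 96 counts, and to 18.9 CPM in replicates 1 to 4, from 57 counts. The pair of replicate 7 libraries held 62 of those 96 counts, and in 27HC libraries miR-3473c and miR-3473d had fewer counts in replicates 5 to 7, at 0 and 1, than in replicates 1 to 4, at 9 and 9. miR-3473b was lower in replicates 5 to 7 than in replicates 1 to 4, with means of 3197 ± 558 (SD, n = 3) and 6483 ± 1660 CPM (SD, n = 4) in DMSO. In 27HC libraries the means were 22422 ± 6413 and 30209 ± 6064 CPM in the same order. Replicates 5 to 7 were also shallower, with 903539 counts in 6 libraries against 3022251 in 8. Whether depth has a part in this was not tested.

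The fold changes that chose the members came from edgeR's quasi-likelihood fit over all tested names with treatment as the only term. The log2 fold changes of 27HC over DMSO were 2.40 (SE 0.25) for miR-3473b, 2.42 (SE 0.26) for miR-3473e, 1.96 (SE 0.16) for miR-7667-5p and 1.61 (SE 0.17) for miR-5128. As ratios these are 5.29, 5.34, 3.89 and 3.04. They held ranks 2, 1, 3 and 5 of 239, with miR-132-3p, at 1.74 (SE 0.43), on rank 4 and miR-150-3p next at 1.22 (SE 0.46), both outside the list. The median over all tested names was 0.010, and that over the members was 2.18 with the miR-3473b and miR-3473e pair entered as 2 names and 1.96 with the pair entered once.

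All 4 members that passed the filter were among the calls, where 3.77% of the tested names were called higher and 8.79% lower at an edgeR adjusted p under 0.05. In all 4, each 27HC library was above each DMSO library, as in 2.09% of the tested names. Both counts enter the near-identical pair as 2 names. Since this comparison chose the names, nothing is read from these counts. The 27 alternatives changed the scaling, filter, tool, model terms or libraries, and included each set of replicates alone. They gave miR-3473b between 2.26 and 2.82, miR-7667-5p between 1.86 and 2.11 and miR-5128 between 1.03 and 2.10.

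**Figure D2:**
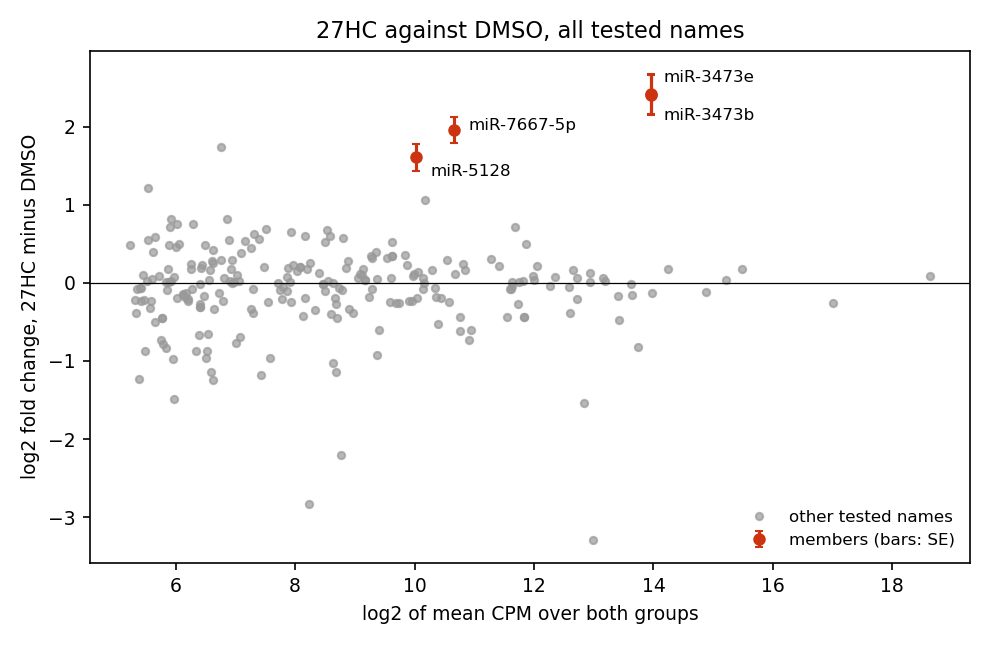
Log2 fold change of 27HC over DMSO against the log2 of the mean CPM for the 239 tested names, with the members in red and bars of 1 SE. miR-3473b and miR-3473e lie on top of each other at 2.40 and 2.42, and miR-7667-5p and miR-5128 lie at 1.96 and 1.61.

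Together, and with miR-3473e left out as a near copy of miR-3473b, miR-3473b, miR-7667-5p and miR-5128 made up 0.452% to 1.02% of the counts in DMSO libraries, with a median of 0.573%. In 27HC libraries they made up 2.02% to 3.68%, with a median of 3.45%. The largest part was miR-3473b in every library.

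The size of the rise was compared between the sets of replicates, which was not used to choose the names. The log2 fold change of miR-3473b was 2.28 (SE 0.20) in replicates 1 to 4 and 2.82 (SE 0.24) in replicates 5 to 7. The values for miR-7667-5p were 2.05 (SE 0.15) and 1.93 (SE 0.21), and those for miR-5128 were 2.10 (SE 0.16) and 1.03 (SE 0.19). miR-5128 thus had the same fold change as miR-7667-5p within 1 SE in the first set and a smaller one in the second.

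An interaction term, fitted over all tested names by edgeR's quasi-likelihood test, gave the difference between the sets, replicates 5 to 7 minus replicates 1 to 4. For miR-5128 it was −1.01 (SE 0.24, edgeR adjusted p 0.0567), which missed the threshold. It passed without DMSO replicate 1, at −1.21 (edgeR adjusted p 0.0269), and without DMSO replicate 4, at −1.11 (edgeR adjusted p 0.0425), while over all alternatives its adjusted p ran from 0.0269 to 0.502. For miR-3473b the difference was 0.59 (SE 0.31, edgeR adjusted p 0.480), and for miR-7667-5p it was −0.056 (SE 0.24, edgeR adjusted p 0.937). Over all names this test called 0 at an adjusted p under 0.05, or 0%, and 24 at an unadjusted p under 0.05, or 10% of those tested.

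The levels of miR-5128 differed between the sets in both treatments. In DMSO it was higher in replicates 5 to 7, at 624 ± 70.6 CPM (SD, n = 3), than in replicates 1 to 4, at 438 ± 61.8 CPM (SD, n = 4), and these ranges did not overlap. In 27HC libraries it was lower in replicates 5 to 7, at 1268 ± 236 CPM, than in replicates 1 to 4, at 1788 ± 239 CPM, with ranges that just missed each other, at 1443 and 1445 CPM. miR-7667-5p was lower in replicates 5 to 7 in both treatments, at 563 ± 54.3 against 737 ± 135 CPM in DMSO and 2134 ± 474 against 2907 ± 326 CPM in 27HC libraries.

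**Figure D3:**
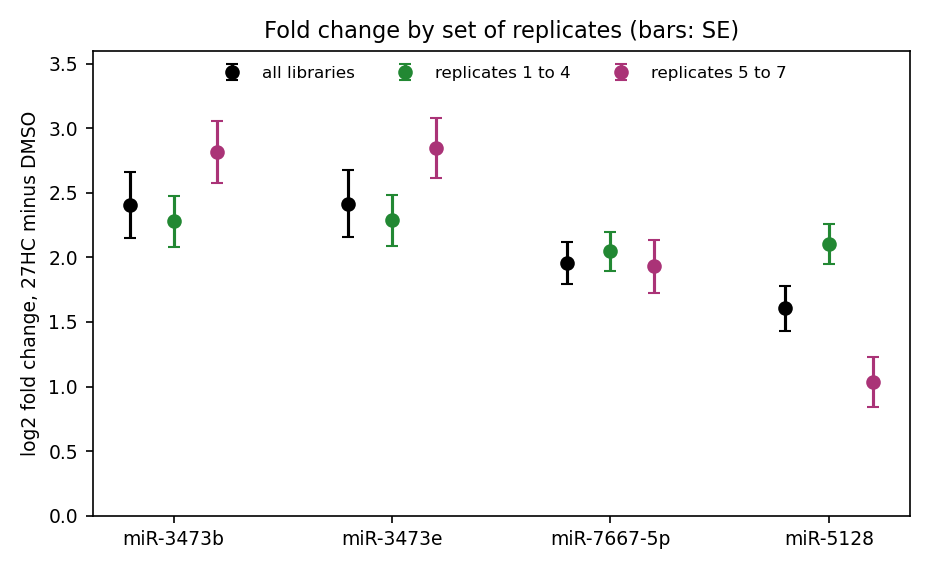
Log2 fold change of 27HC over DMSO with bars of 1 SE for the 4 tested members, in all libraries, in replicates 1 to 4 and in replicates 5 to 7. miR-7667-5p stays near 2 in both sets, while miR-5128 is at 2.10 in the first and at 1.03 in the second.

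Variation between libraries of the same treatment was not used to choose the names, and in it miR-3473b and miR-7667-5p went together. Over the 7 DMSO libraries their log2 CPM had a Pearson r of 0.89 (exact permutation p 0.00774, adjusted over 6 correlations 0.0232) and a Spearman rho of 0.82 (exact permutation p 0.0341, adjusted 0.102). Over the 7 libraries with 27HC the r was 0.93 (exact permutation p 0.000397, adjusted 0.00238) and the rho 0.96 (exact permutation p 0.00278, adjusted 0.0167). All p-values here are two-sided. Across all pairs of tested names, 98.0% had a lower r in DMSO and 99.6% in 27HC libraries.

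The relation kept a similar size within the sets of replicates, with both treatments pooled. No test was run there, and subtracting means leaves fewer free points than libraries. On deviations from the mean of each treatment and set, r was 0.83 over the 8 libraries of replicates 1 to 4 and 0.90 over the 6 of replicates 5 to 7, with medians over all pairs of tested names of 0.0045 and 0.0029. It was smaller without the extreme libraries in both treatments. In DMSO r was 0.58 without replicates 2 and 7 (exact permutation p adjusted 0.617). In 27HC libraries it was 0.80 without replicates 6 and 7 (exact permutation p adjusted 0.15). With so few libraries left, a lone correlation of any size could not have passed. With library totals in place of TMM sizes the DMSO value was 0.68 (exact permutation p adjusted 0.195), and without DMSO replicate 2, 5 or 7 in turn the adjusted p by exact permutation in DMSO was between 0.05 and 0.104. Without 27HC replicate 7 the r in 27HC libraries was 0.89 (exact permutation p adjusted 0.0583). The points share the library size by which both values were divided.

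miR-5128 was set against miR-3473b in the same way, and the difference from the correlations above was not tested. In DMSO their r was −0.75 (exact permutation p 0.0528, adjusted 0.0792) and in 27HC libraries 0.64 (exact permutation p 0.117, adjusted 0.141), with rho of −0.68 and 0.61 (exact permutation p 0.110 and 0.167, both 0.200 after adjustment). On deviations from the mean of treatment and set r was −0.074 in replicates 1 to 4 and 0.54 in replicates 5 to 7. Without the 2 most extreme libraries r was −0.70 in DMSO and −0.21 in 27HC libraries. The value in 27HC libraries was 0.92 without replicate 1 (exact permutation p adjusted 0.00833) and 0.23 without replicate 7 (exact permutation p adjusted 0.575).

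miR-5128 and miR-7667-5p had an r of −0.53 in DMSO (exact permutation p 0.219, adjusted 0.219) and of 0.86 in 27HC libraries (exact permutation p 0.0177, adjusted 0.0353). The rho was −0.54 and 0.64 (exact permutation p 0.236 and 0.139, adjusted 0.236 and 0.200). In DMSO, r was −0.88 without replicate 3 (exact permutation p adjusted 0.0265) and −0.28 without replicate 7 (exact permutation p adjusted 0.586). In 27HC libraries r was 0.51 without replicates 2 and 7, 0.83 without replicate 2 alone and 0.61 without replicate 7 alone, so the size of the value rests on replicate 7. Leaving out any 1 of 27HC replicates 2 to 7 took the adjusted p in 27HC libraries, by exact permutation, past 0.05, and within the sets r was 0.36 and 0.61.

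**Figure D4:**
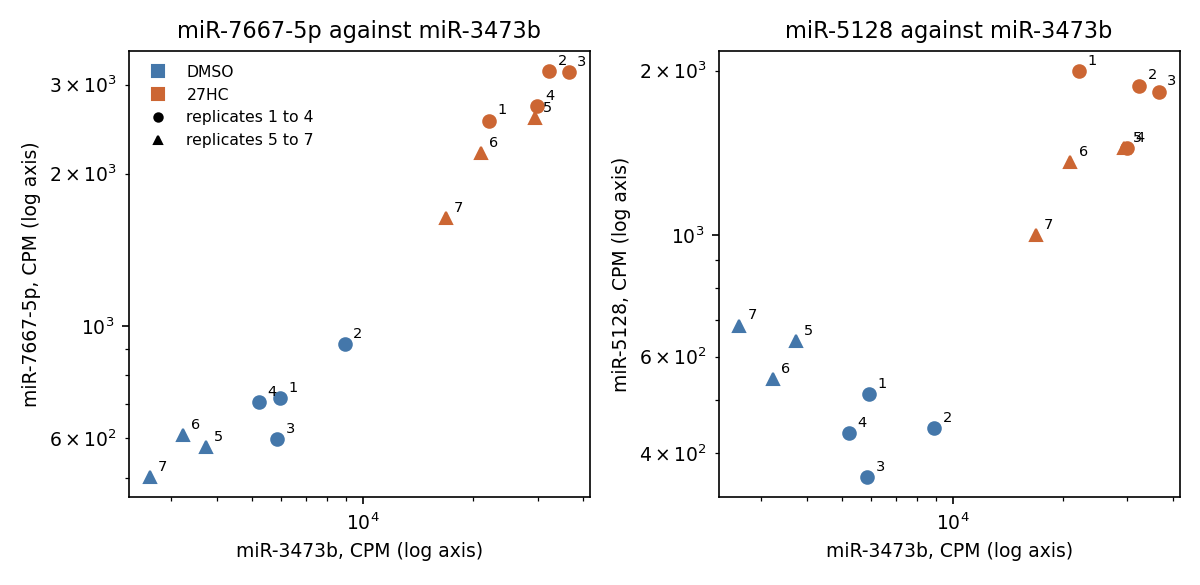
CPM of miR-7667-5p (left) and of miR-5128 (right) against CPM of miR-3473b in each library, both axes logarithmic, with replicate numbers beside the points. The r with miR-3473b is 0.89 in DMSO and 0.93 in 27HC libraries for miR-7667-5p, and −0.75 and 0.64 for miR-5128.

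Ratios to miR-3473b differed between the sets of replicates in DMSO for both miR-7667-5p and miR-5128. For 100 counts of miR-3473b there were 10.2 to 13.5 counts of miR-7667-5p in DMSO replicates 1 to 4, 15.5 to 19.2 in DMSO replicates 5 to 7, and 8.69 to 11.5 over the 7 libraries with 27HC. For miR-5128 the same ranges were 4.97 to 8.63, 16.9 to 26.1 and 4.83 to 9.04. DMSO replicates 5 to 7 thus stood above all other libraries in both ratios, and the other DMSO libraries overlapped with the 27HC libraries in both.

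The names most like each member were sought by r over the 14 libraries after the mean of each treatment had been subtracted. For miR-3473b, apart from miR-3473e, miR-7667-5p was the closest of all tested names at 0.87. The closest names outside the list were miR-15b-5p at 0.83, miR-150-5p at 0.82, miR-338-3p at 0.81, miR-223-3p at 0.77 and miR-340-5p at 0.75. With the mean of each set subtracted as well, these 5 were between 0.12 and 0.55, and miR-7667-5p was at 0.86. The 5 were picked for the highest first r, so a fall can follow from that choice. The remaining tested names were not ranked with the set means subtracted, so miR-7667-5p may not stand alone there. Of the 5, miR-150-5p was called in the comparison with DMSO, at −0.97 on the log2 scale with an SE of 0.24 (edgeR adjusted p 0.0134).

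For miR-7667-5p the closest outside names were miR-1306-5p at 0.87, miR-296-5p at 0.86, miR-150-5p at 0.80, miR-484 at 0.71 and miR-30d-5p at 0.64. With the set means subtracted as well, these were 0.72, 0.68, 0.64, 0.23 and −0.30 in the same order. For miR-5128 they were miR-669c-5p at 0.80, miR-92b-3p at 0.68, miR-139-3p at 0.66, miR-328-3p at 0.66 and miR-345-3p at 0.65, and with the set means subtracted 0.73, 0.61, 0.29, 0.53 and 0.34. Before the set means were subtracted, miR-3473b was on rank 164 in likeness to miR-5128, at −0.17, and miR-7667-5p on rank 55, at 0.25. With the set means subtracted they were at 0.20 and 0.47, the second above miR-139-3p and miR-345-3p. These values describe shared variation between libraries and carry no test.

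Other names with related letters were looked up by sequence. Apart from the members, 2 names shared a run of at least 10 bases on the same strand with miR-3473b, miR-7667-5p or miR-5128, namely miR-6997-5p with 8 counts in all libraries and miR-7684-3p with 16. Neither passed the filter, so that this list had 0 tested names. With a run of at least 8 bases, 40 names were found and 2 were tested, miR-24-3p and miR-5119. edgeR called 0 of these 2, with 0 at an unadjusted p under 0.05, and DESeq2 and limma-voom called 0. With 2 names this cannot be told from the 3.77% higher and 8.79% lower that edgeR called over all tested names.

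Other names with repeated sequence were set beside the members. Of the 201 tested names with a sequence, 12 held an 18-base stretch that occurs in 10 or more annotated genes: the 4 members and 8 others. These 8, a list set after the values were seen, were miR-1187, miR-1195, miR-1946b, miR-3470b, miR-3472, miR-466i-3p, miR-574-5p and miR-706. edgeR called 0 of them, with 1 at an unadjusted p under 0.05, and DESeq2 and limma-voom called 0. Over all tested names edgeR called 3.77% higher and 8.79% lower, and 0 of 8 cannot be told from these shares. Their log2 fold changes ran from −0.84 to 0.62, and their median was 0.023 beside 0.010 for all tested names. mmu-miR-3470b and mmu-miR-1195, found in 1484 and 1245 genes, were at −0.65 (SE 0.68) and −0.77 (SE 0.50). Their total counts, 253 and 412 over all libraries, were far lower than the 53756 of miR-3473b, and their errors are wider.

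**Figure D5:**
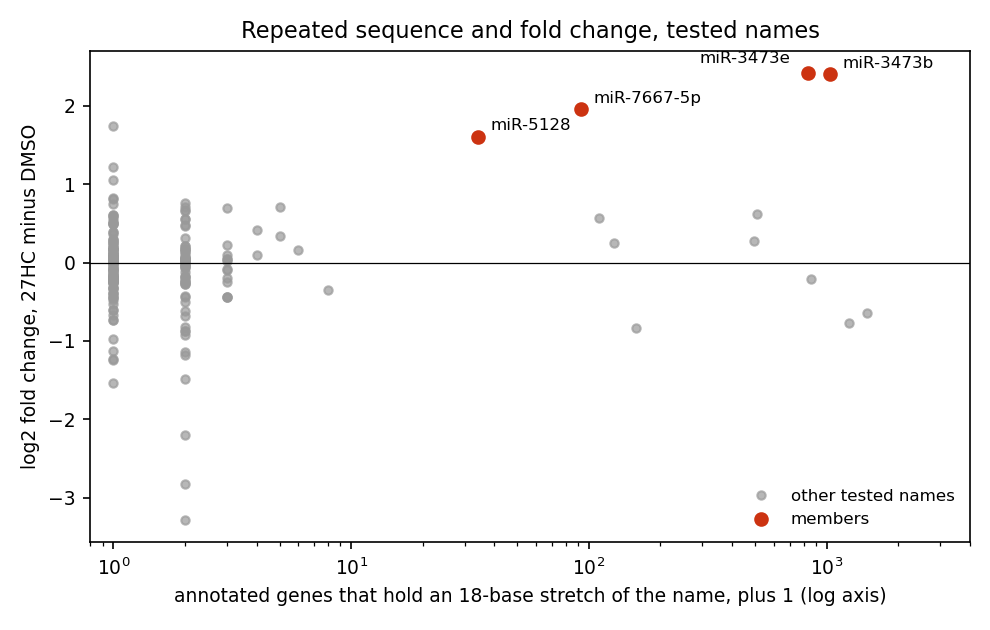
Log2 fold change of 27HC over DMSO against the number of annotated genes that hold an 18-base stretch of the name (plus 1, log axis) for the 201 tested names with a sequence, members in red. The 4 members lie above 1.60, and the 8 other names found in 10 or more genes lie between −0.84 and 0.62.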

How the data were processed

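Small RNA was counted in 14 libraries, 7 per treatment, made with the QIAseq miRNA kit per the labels' protocols. The values are raw counts per mature miRNA name, deposited by the authors. The submitters' processing notes name R 4.1.2, edgeR, limma and GRCm39. The aligner, the rule for reads that match several names and the use of molecular identifiers are not given in the sources used here. All 14 rows were matched to a label, and 0 columns were left out.

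Counts were fitted with edgeR 4.0.16 in R 4.3.3 (quasi-likelihood test, TMM, filterByExpr with min.count 10 and min.total.count 15, Benjamini-Hochberg adjustment over all 239 names left, which held 99.4% of counts). Log2 CPM used a prior count of 2. Correlations were tested by exact permutation over all 5040 pairings of 7 libraries. The fit was tested on simulated counts. Alternatives included DESeq2 1.42.0 and limma 3.58.1 (voom). Intervals and limits from counts cover counting error only. The members and lists were chosen with earlier results of these data known. Named miRNAs are the members, miR-223-3p, names sharing a run of bases with them, and the 5 names closest in covariation to each of miR-3473b, miR-7667-5p and miR-5128. Outside this rule, names with a shared seed were taken by sequence and miR-122-5p as a marker, and the next names by fold change, further family names and the 8 names with repeated sequence were named after values were seen. Sequences are from RefSeq (GRCm38.p6) and cover 1431 of 1695 names.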

Additional observations from a re-analysis of the deposited data

Results flagged for a closer look

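Of 24 groups of 7 libraries examined, over the CPM of the 9 names and over ratios between them, 4 had an extreme library set off by a wide gap. Chance flags about 1 in 20 groups of independent, normally spread values. These groups share names and include counts near 0, so that rate is only a guide. In 27HC replicate 7, miR-3473a stood at 57.4 CPM and miR-3473f also at 57.4 CPM, each from 7 counts, against 15.3 and 12.6 CPM in the next library of the group. In DMSO replicate 7, miR-3473f stood at 40.2 CPM, from 12 counts, against 17.1 CPM in the next. In 27HC replicate 1 there were 9.04 counts of miR-5128 for 100 of miR-3473b, against 6.49 in the next library. Without that library the correlation of miR-3473b with miR-5128 in 27HC libraries was 0.92 (exact permutation p adjusted 0.00833) in place of 0.64.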

How the results depend on the processing

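The 4 tested members were chosen by their rise, so that their calls under all 27 alternatives (3 of 3 where miR-3473e was left out) are no separate support. Among their fold changes miR-5128 moved most, to 2.10 in replicates 1 to 4 and 1.03 in replicates 5 to 7. Same-numbered libraries had correlations of 0.069 to 0.60 in their deviations, 3 of 7 27HC libraries correlated best with their own number, and the labels state no pairing. With the replicate block 37 names were called in place of 30, the 4 members among them, and miR-3473b was at 2.47. Replicates 5 to 7 alone called 12 of 198 names. Leaving out single libraries gave 21 to 34 calls. The difference between sets called 9 of 1695 names with no filter, and 0 to 3 with a library left out. For miR-7667-5p that difference, near 0, changed sign to 0.14 with no filter, and it ran from −0.28 to 0.0032 with a library left out, the last without 27HC replicate 7. Of the 6 correlations 3 passed, 1 with library totals only and 1 to 4 with a library left out. Without the 2 farthest libraries 0 passed, but with the 5 that remain a lone correlation of any size could not have passed. That of miR-7667-5p with miR-5128 in DMSO turned to 0.12 with library totals, and that of miR-3473b with miR-5128 in 27HC to −0.21 without the 2 farthest libraries. The cause was not tested. A run of 8 bases on either strand, a search added after seeing the data, gave 1 called name of 4 tested, miR-744-5p. It was lower with 27HC, at −0.53 (SE 0.17, edgeR adjusted p 0.0469), and its run of 8 was on the other strand. Over all tested names 8.79% were called lower. Depth limits the 5 scarce members: miR-3473d ranged from −1.77 to 0.73 and miR-3473a from −0.58 to 1.23 over alternatives. miR-3473c was at 1.76 (SE 1.25) in replicates 1 to 4 and −4.41 (SE 2.03) in replicates 5 to 7, where its 27HC libraries held 0 counts, so the last is no measured size.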
